A study of Mus musculus with 16 samples.

Results

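The genes described here are 8 adrenergic receptors and G protein regulators of the heart: the receptors Adrb1, Adra1a and Adra1b, the adenylyl cyclases Adcy5 and Adcy6, the RGS proteins Rgs2 and Rgs4, and the receptor kinase Grk5. They were chosen by gene symbol in the platform annotation of an Illumina BeadChip. Of the 8, 6 had a probe under their symbol, with 9 probes in all among 25697 on the array. Adrb1 and Adra1a were not analysed here. In all, 4 of the 8 genes (Grk5, Adcy6, Rgs2 and Rgs4) were bright enough to be tested, among 9119 tested genes of the array.

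RNA came from the left ventricle of male C57BL6 mice that were 12 weeks old when assigned at random to 4 groups, with 4 arrays each. The L-NAME+AngII group, called the combination below, is the series' model of heart failure. Its mice drank water holding 0.3 mg/ml L-NAME, which blocks nitric oxide synthesis, and 1% NaCl, and had a subcutaneous pump that gave 0.7 mg/kg/day of angiotensin II (AngII), a vasoconstrictor peptide. The AngII group and the L-NAME group received 1 agent each, AngII for 4 weeks or L-NAME with salt for 5 weeks. The control group is labelled only as control, and the labels do not say whether control or AngII mice drank salt, so effects of L-NAME and of salt cannot be told apart. Nothing in the labels says that the numbered samples of a group came from separate mice, and p-values then speak only for the spread between these arrays, which may be technical.

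In heart muscle, noradrenaline and adrenaline act on beta-adrenergic receptors, which couple through the G protein Gs to adenylyl cyclase. The cyclic AMP it makes activates protein kinase A (PKA), which raises the rate and force of contraction. The alpha1 receptors encoded by Adra1a and Adra1b, like the AngII receptor, couple to Gq and phospholipase C, a route known for its part in muscle growth. Signalling is damped at the receptor by kinases such as Grk5, which mark active receptors for arrestin binding, and at the G protein by RGS proteins, which speed up its return to the inactive state. Loss of beta-receptor density and responsiveness is a long-known feature of failing hearts.

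Levels are log2 intensities as deposited, already quantile normalised by the authors, with a median of 6.9 on every array. Background was taken as 7.13, the 95th percentile of probes for chemosensory receptor genes, and a gene was tested if a probe exceeded it on at least 4 of the 16 arrays. Differences are from limma's linear model over all 16 arrays, and a gene was called at a Benjamini-Hochberg adjusted p under 0.05 over all tested genes. The combination differed from the control group in 5.79% of tested genes, from the AngII group in 0.735% and from the L-NAME group in 1.89%. The share was 0% for AngII against control, for L-NAME against control and for the interaction, which asks whether AngII acted differently with L-NAME than without it. Cardiomyocyte markers matched heart muscle: 7 of 8 listed genes were tested and averaged 14.23 to 14.42 on every array. The 4 tested atrial markers varied more, from 8.86 on AngII array 1 to 11.61 on combination array 3, with 10.91 on control array 4.

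One array stood apart and touches every result below. The correlation of combination array 4 with the mean of its group's other arrays was 0.950, against 0.977 to 0.990 for the other 15 arrays. On it the 3 tested red cell markers averaged 13.21, against 10.71 to 11.79 on the other arrays. Its averages were the lowest of all 16 for 6 fibroblast markers (9.94, others 10.19 to 11.39), 8 smooth muscle and pericyte markers (10.41, others 10.67 to 11.09), 6 endothelial markers (9.60, others 9.70 to 10.31) and 4 macrophage markers (9.48, others 9.67 to 10.33). On combination arrays 1 to 3 the fibroblast markers averaged 11.01 to 11.39, above all 12 arrays of the other groups (10.19 to 10.78). Leaving out combination array 4, 4 of the 6 fibroblast genes were called higher in the combination than in the control group, and with it 0 of 6. The part of these marker differences in the results was not tested. The main differences of the combination are given with and without this array.

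No tested member passed in any of the 6 comparisons (limma, 0 of 4 called in each). At an unadjusted p under 0.05 the combination differed from control in 1 of the 4, Rgs2, where 21.4% of all tested genes had such a p. Rgs2 was also the 1 member with such a p for the combination against L-NAME, where the share of all tested genes was 16.7%. The other 4 comparisons had 0 of 4, against 14.4% of tested genes for AngII against control, 11.4% for L-NAME against control, 15.5% for the combination against AngII and 16.4% for the interaction. All 4 members had a lower mean in the combination than in the control group, with a median difference of -0.43, while the median over all tested genes was -0.00478 and 50.8% of them had a lower mean. With that group's array 4 left out, 3 of the 4 were lower and the median was -0.13. In bulk tissue, fewer cells of a type and less RNA per cell cannot be told apart.

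**Figure D1:**
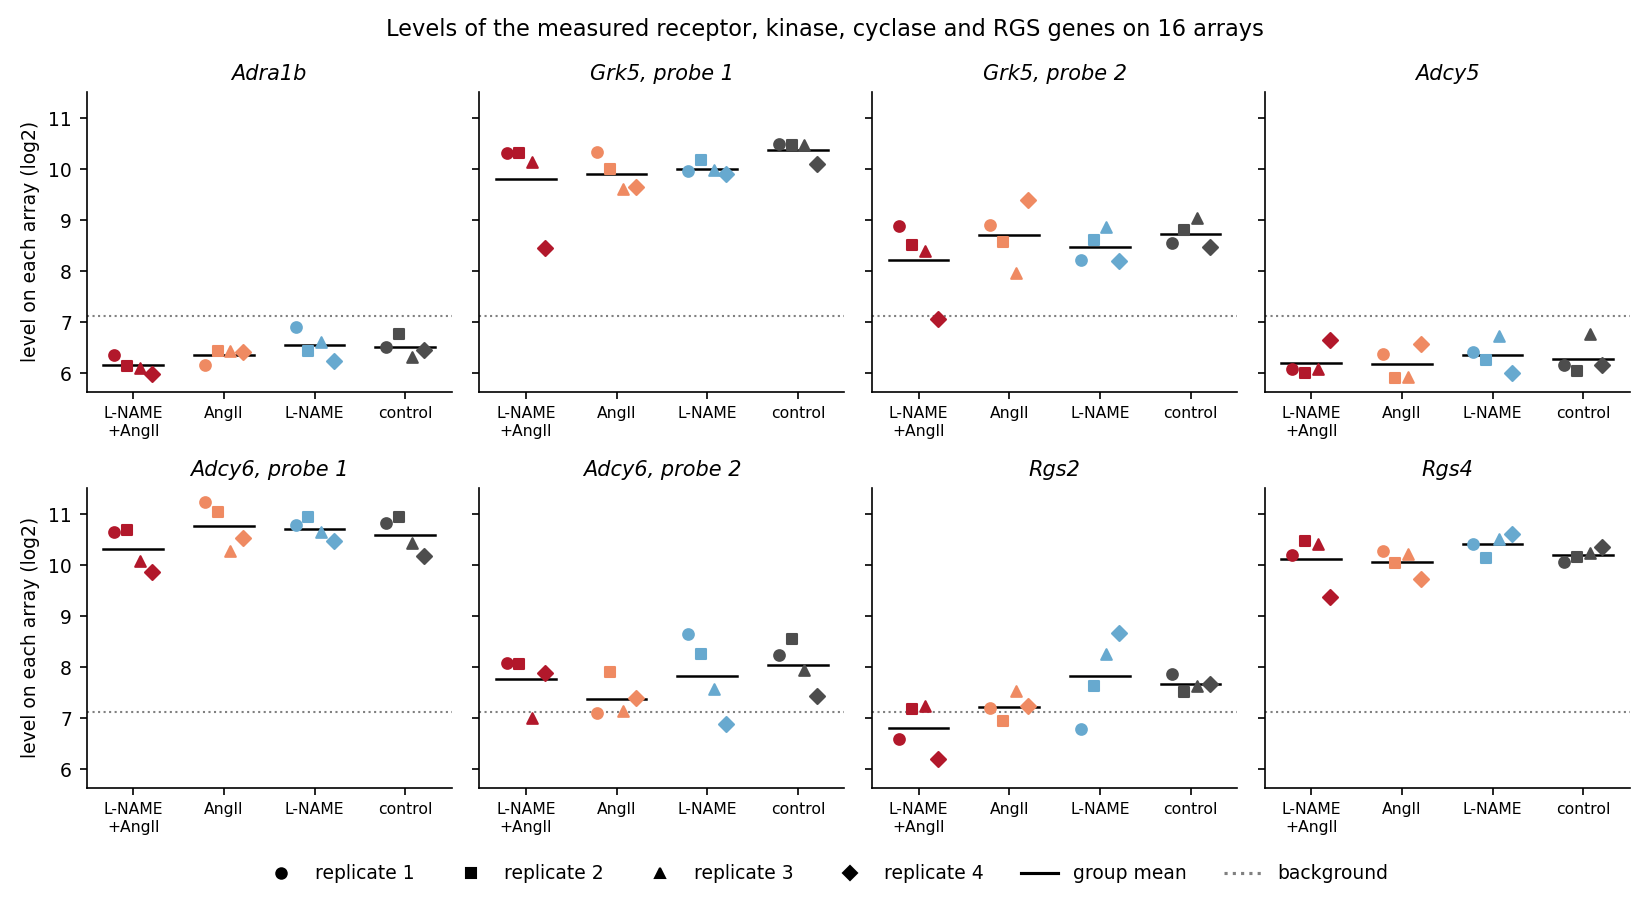
Levels (log2) of the 6 measured genes on the 16 arrays, by group, with a marker for each replicate number, the group mean as a line and the background level of 7.13 dotted. Adra1b and Adcy5 lie below background on every array, and combination array 4 is the lowest of the 16 for Rgs2, Rgs4, both probes of Grk5 and the first probe of Adcy6.

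Among the receptors, the alpha1B receptor gene Adra1b had 1 probe, which was not well above background on any array. Its values ran from 5.99 to 6.36 in the combination group, 6.15 to 6.44 in the AngII group, 6.25 to 6.9 in the L-NAME group and 6.32 to 6.77 in the control group. Values below background have no order, so no difference is drawn from them. Adra2c, the alpha2C receptor gene, was the only other adrenergic receptor tested and differed by 0.29 between combination and control (limma adjusted p = 0.52). The neuronal markers Th and Dbh, enzymes of noradrenaline synthesis in sympathetic nerves, were below background as well.

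Grk5 encodes a G protein-coupled receptor kinase that phosphorylates adrenergic receptors in heart muscle. Its brighter probe had levels of 10.31, 10.32, 10.14 and 8.45 on the combination arrays, against 10.49, 10.48, 10.48 and 10.10 on the control arrays. The AngII arrays had 10.34, 10.01, 9.62 and 9.66, and the L-NAME arrays 9.96, 10.18, 9.99 and 9.90. All 3 treated groups had lower means than the control group, whose lowest array overlapped with each of them. The order was combination (9.81), AngII (9.91), L-NAME (10.01) and control (10.39), and the arrays of neighbouring groups overlapped throughout.

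The Grk5 difference of the combination from control was -0.58 ± 0.32 (SE, limma adjusted p = 0.319; 95% interval -1.27 to 0.10). It came mostly from 1 array: without combination array 4 the difference was -0.13 ± 0.16 (adjusted p = 0.722). AngII differed from control by -0.48 (interval -1.17 to 0.20, adjusted p = 0.526) and L-NAME by -0.38 (interval -1.06 to 0.30, adjusted p = 0.735). These 3 comparisons share the control arrays. With combination array 4 out of the fit, and so out of the estimate of the spread, the SE of both single-agent differences was 0.15, and their adjusted p-values were 0.111 for AngII and 0.248 for L-NAME. Against the single agents, the combination differed by -0.10 from AngII and by -0.20 from L-NAME (adjusted p = 0.914 and 0.821). Both differences changed sign without combination array 4, to 0.35 and 0.25 (adjusted p = 0.346 and 0.546). The interaction was 0.28 ± 0.45 (SE, limma adjusted p = 0.82), or 0.73 ± 0.22 (adjusted p = 0.125) without that array.

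A second Grk5 probe gave a similar picture for the combination but not for AngII. It had 8.90, 8.52, 8.40 and 7.06 on the combination arrays, against 8.56, 8.82, 9.04 and 8.48 on the control arrays. The difference was -0.50 ± 0.35 (SE, limma over all tested probes, adjusted p = 0.45), or -0.12 without combination array 4. For AngII its difference from control was -0.014, where the brighter probe had -0.48, so the lower mean of Grk5 in the AngII group rests on 1 probe. For the interaction the second probe had -0.24, or 0.15 without combination array 4. Over the 16 arrays the 2 probes correlated with r = 0.72, and over 15 arrays without combination array 4 with r = 0.27. Where on the transcript each probe matches was not analysed here.

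Adcy5 and Adcy6 encode the adenylyl cyclases that prevail in heart muscle, where both are inhibited by calcium and by Gi. The Adcy5 probe was below background on all 16 arrays, at 5.90 to 6.77, and was not tested. For Adcy6, 2 of 3 probes were tested, and the other stayed below background at 5.90 to 6.56. The brightest probe had 10.65, 10.69, 10.09 and 9.88 on the combination arrays, against 10.83, 10.95, 10.44 and 10.18 on the control arrays. The AngII arrays had 11.25, 11.05, 10.29 and 10.53 and the L-NAME arrays 10.80, 10.94, 10.65 and 10.49. The arrays of all groups overlapped, with group means in the order combination (10.32), control (10.60), L-NAME (10.72) and AngII (10.78).

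None of the Adcy6 differences passed. The combination differed from control by -0.28 ± 0.24 (SE, limma adjusted p = 0.555; interval -0.79 to 0.23), or by -0.13 without combination array 4. It differed from AngII by -0.45 (interval -0.97 to 0.056, adjusted p = 0.38) and from L-NAME by -0.39 (interval -0.91 to 0.12, adjusted p = 0.45), or by -0.31 and -0.24 without that array. With the averaged level of Myl4, Myl7 and Sln, which mark atrial muscle, as a covariate, these 3 differences were -0.14, -0.23 and -0.18. The interaction was -0.57 ± 0.34 (adjusted p = 0.426), or -0.42 without combination array 4 and -0.26 with the covariate. The second probe went the other way for the combination against AngII, at 0.38, and for the interaction, at 0.59 (limma over all tested probes, adjusted p = 0.667 and 0.617). It kept the sign for the combination against control (-0.29) and against L-NAME (-0.073). For AngII and L-NAME against control it had -0.67 and -0.21, where the brightest probe had 0.18 and 0.12. Its AngII mean was the lowest, at 7.38, and its control mean the highest, at 8.05. The sign of Adcy6 thus depends on the probe for the combination against AngII, both single agents against control and the interaction.

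Adcy6 split the arrays by replicate number rather than by treatment. In all 4 groups both arrays numbered 1 and 2 lay above both arrays numbered 3 and 4, which held in one direction or the other for 6.16% of tested genes. The 8 arrays numbered 1 or 2 had 10.65 to 11.25 and the 8 numbered 3 or 4 had 9.88 to 10.65. What the numbers mark is not given in the labels, and the split into these sets was first seen in these data. Within the sets the combination minus control difference was -0.23 for replicates 1 and 2 and -0.33 for replicates 3 and 4. With the replicate number as a block, the SE of the Adcy6 difference was 0.12 instead of 0.24, and the adjusted p for the combination was 0.177 against control, 0.0784 against AngII and 0.0974 against L-NAME. The brighter Grk5 probe showed the same split in the combination and AngII groups but not in the L-NAME group. In the control group it did so only narrowly, with array 2 at 10.484 and array 3 at 10.478. No share of all tested genes is given for this, so nothing is drawn from it. The second Grk5 probe did not split this way in the control, AngII or L-NAME group. For the brighter probe the combination minus control difference was -0.17 for replicates 1 and 2. It was -1.0 for replicates 3 and 4, the set that holds combination array 4.

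Rgs2 encodes an RGS protein that acts mainly on Gq, and mice that lack it have high blood pressure. Its levels were 6.59, 7.17, 7.24 and 6.20 on the combination arrays, against 7.86, 7.52, 7.63 and 7.67 on the control arrays. Every combination array lay below every control array, a separation that 6.7% of tested genes showed in this direction and 12.6% in either. The AngII arrays had 7.20, 6.94, 7.53 and 7.24, and the L-NAME arrays 6.79, 7.64, 8.26 and 8.66. The probe was dim, with 2 combination arrays, 3 AngII arrays, 3 L-NAME arrays and 4 control arrays above background.

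The combination differed from control in Rgs2 by -0.87 ± 0.32 (SE, limma; interval -1.55 to -0.18), with an unadjusted p of 0.0162 and an adjusted p of 0.125. The combination mean, at 6.80, lay below background, so no fold is given and the size of the difference is uncertain. Without combination array 4 the difference was -0.67 (adjusted p = 0.258). Within the sets of replicates it was -0.81 for 1 and 2 and -0.93 for 3 and 4. The group means ran in the order combination (6.80), AngII (7.23), control (7.67) and L-NAME (7.84). AngII differed from control by -0.44 (interval -1.13 to 0.24) and the combination from AngII by -0.43 (interval -1.11 to 0.26), or by -0.23 without combination array 4. Neighbours in that order were thus not separated beyond their error.

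Between the combination and L-NAME groups the Rgs2 difference was -1.04 ± 0.32 (SE, limma adjusted p = 0.117; interval -1.72 to -0.35), or -0.84 without combination array 4, again with values below background in both groups. L-NAME array 1, at 6.79, was below all control arrays while L-NAME arrays 3 and 4 were above them, and the group's SD was 0.81 against 0.14 in the control group. The call depended on that array: without it the difference was -1.39 and passed (adjusted p = 0.0228). Within the sets of replicates the difference was -0.33 for 1 and 2 and -1.74 for 3 and 4. L-NAME against control gave -0.48 for replicates 1 and 2 and 0.81 for replicates 3 and 4, with 0.17 over all arrays (adjusted p = 0.913).

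Rgs4 encodes an RGS protein that acts on both Gi and Gq. Its levels were 10.20, 10.47, 10.42 and 9.37 on the combination arrays, against 10.06, 10.16, 10.24 and 10.37 on the control arrays. The AngII arrays had 10.28, 10.05, 10.22 and 9.72 and the L-NAME arrays 10.42, 10.15, 10.52 and 10.61. The other 3 combination arrays, at 10.20 to 10.47, lay within the range of the remaining groups, and the arrays of all groups overlapped. The means ran in the order AngII (10.07), combination (10.12), control (10.21) and L-NAME (10.42).

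The combination differed from control in Rgs4 by -0.091 ± 0.21 (SE, limma adjusted p = 0.847; interval -0.53 to 0.35). Without combination array 4 it was 0.16 ± 0.15 (adjusted p = 0.613), so even the sign rests on that array. Within the sets of replicates it was 0.22 for 1 and 2 and -0.40 for 3 and 4. L-NAME differed from control by 0.21 (interval -0.23 to 0.65) and AngII by -0.14 (interval -0.58 to 0.30). The combination differed from L-NAME by -0.30 (interval -0.74 to 0.14, adjusted p = 0.509), or by -0.057 without combination array 4.

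**Figure D2:**
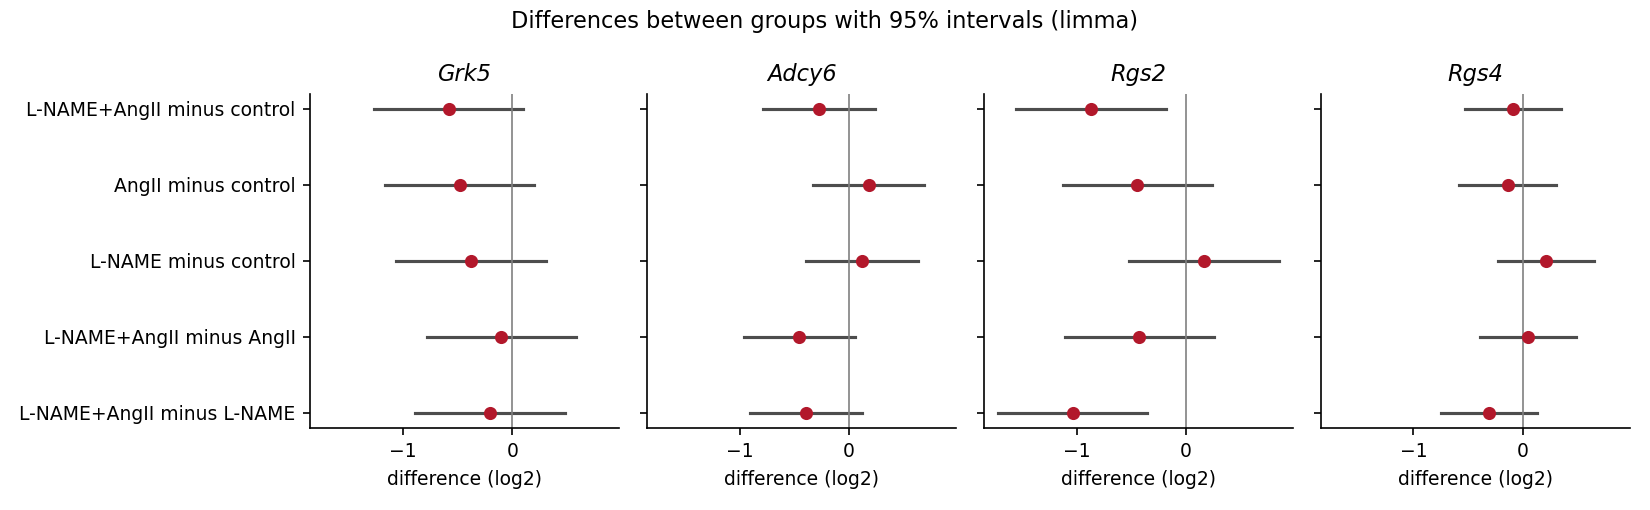
Differences in log2 level between groups for the 4 tested members, as points with 95% intervals from limma. The intervals hold 0 except for Rgs2 in the combination against control (-1.55 to -0.18) and against L-NAME (-1.72 to -0.35), neither of which passed after adjustment.

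What the 4 tested members shared was their lowest array. Combination array 4 held the lowest of the 16 values of all 4, and 23.5% of tested genes had their lowest value there. The dim second Adcy6 probe had its lowest value on L-NAME array 4 instead. Among the members, correlations over the 16 arrays ran from 0.11 for Adcy6 and Rgs2 to 0.64 for Rgs4 and Grk5. The pair of Rgs4 and Grk5 had r = 0.083 without combination array 4, and Rgs2 with Rgs4 and Adcy6 with Grk5 had 0.36 each. The remaining pairs were negative without that array: -0.22 for Adcy6 and Rgs2, -0.25 for Adcy6 and Rgs4, and -0.087 for Rgs2 and Grk5. Taken as deviations from group means, Adcy6 and Grk5 had r = 0.71 over the 16 arrays and 0.88 without that array. The arrays share normalisation and the replicate sets, so these values are descriptions.

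**Figure D3:**
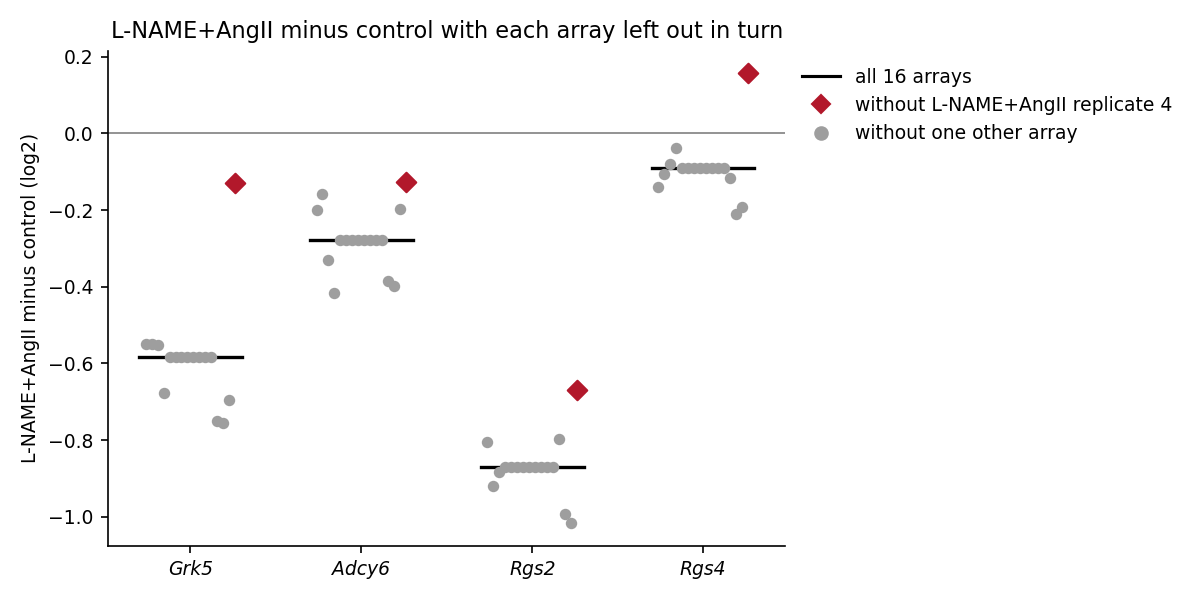
Combination minus control difference (log2) for each tested member with all 16 arrays (line) and with each array left out (points). The diamond marks the fit without combination array 4, at -0.13 for Grk5, -0.13 for Adcy6, -0.67 for Rgs2 and 0.16 for Rgs4, and is the highest point of each member.

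The tested genes whose levels followed Rgs2 most closely over the 16 arrays were Chac2, a glutathione-degrading enzyme (Pearson r = 0.79), Surf1 (0.78) and Irx2 (0.78). Of these, Surf1, an assembly factor of cytochrome c oxidase, fell in the combination by 0.43 (limma adjusted p = 0.0352), as did Irx2, a homeobox gene, by 0.71 (adjusted p = 0.0396). Both were picked from 9119 tested genes by r over the same arrays, group differences included. A lower level in the combination is thus partly built into that choice. Neither passed without combination array 4 (adjusted p = 0.0631 and 0.0735), and the correlations of the 3 genes with Rgs2 were 0.70, 0.70 and 0.72. Grk5 was followed by Spon2 (r = 0.95), a secreted matrix protein, Vps45 (0.93), which acts in vesicle transport, and the chemokine gene Ccl21c (0.93), which came to 0.83, 0.80 and 0.85 without combination array 4. Adcy6 was followed by Gart (r = 0.96), a purine synthesis enzyme, Slc4a3 (0.93), an anion exchanger of heart muscle, and Cpsf1 (0.91), which acts in messenger RNA cleavage. Without combination array 4 these were 0.95, 0.90 and 0.88. None of the genes that followed Grk5 or Adcy6 passed for the combination against control.

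The wider route from receptor to effector was described with a list of 123 other genes, of which 108 had a probe and 73 were tested. Between combination and control 2 of the 73 rose and 4 fell (limma), or 8.22% against 5.79% of all tested genes, with a median of 0.078 against -0.00478 over all genes. At an unadjusted p under 0.05 there were 17 of the 73, or 23.3%, against 21.4% of all tested genes. Fitted on the 8 arrays of these groups alone, none of the 6 passed, with an adjusted p of 0.0611 for Popdc3, 0.0649 for Gng5 and 0.0703 for Pkig, and 0.136 to 0.177 for the other 3 genes. Without combination array 4, 9 were called, among them all 6, while 6.36% of all tested genes were. By role, 3 of 17 G protein subunits, 2 of 14 cyclic AMP effectors and 1 of 7 PKA substrates and phosphatase regulators were called. None was called among 4 other adenylyl cyclases, 7 other RGS proteins, 4 receptor kinases and arrestins, 7 phosphodiesterases, 7 Gq effectors, 3 enzymes of catecholamine metabolism and 2 other receptors of heart muscle.

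**Figure D4:**
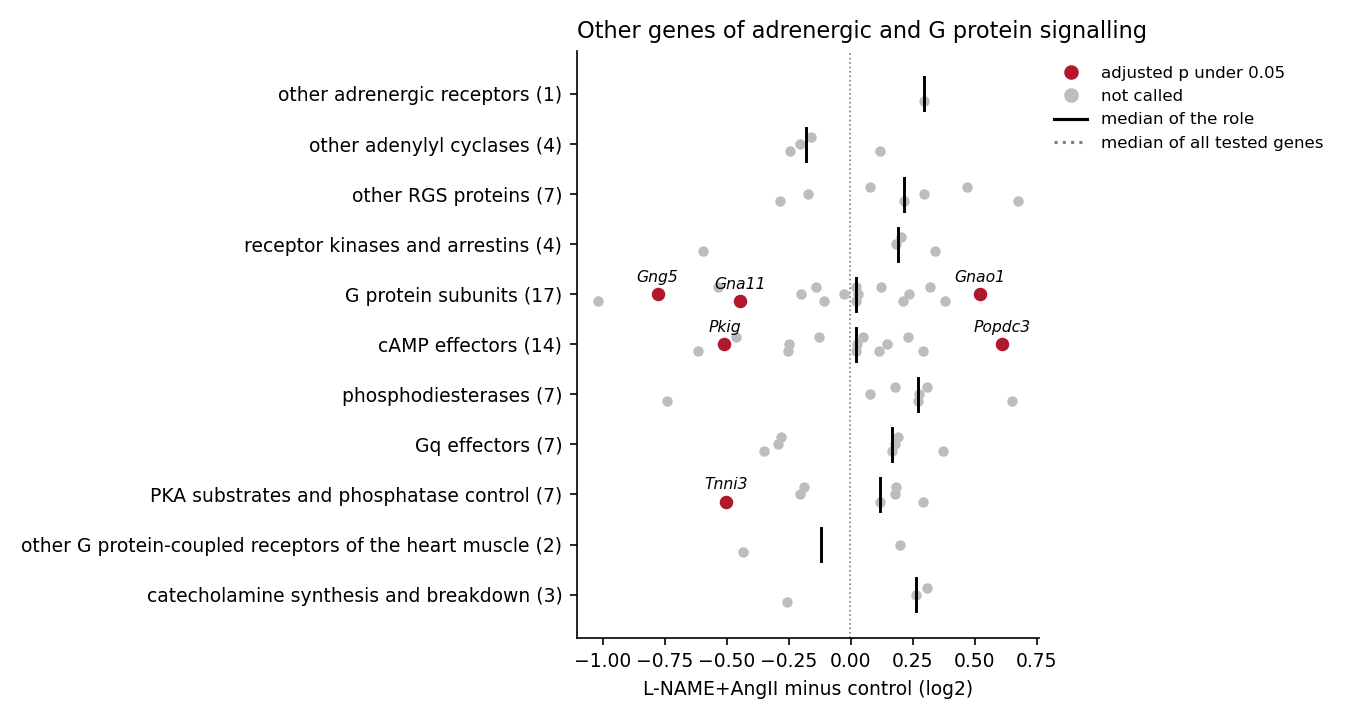
Combination minus control differences (log2) of the 73 tested genes of the list by role, with the number tested in brackets, called genes in red with their names, the median of each role as a bar and the median of all tested genes dotted. The called genes are Popdc3 and Gnao1 on the higher side and Gng5, Pkig, Tnni3 and Gna11 on the lower side.

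Of the called genes, Popdc3 and Pkig act on cyclic AMP signalling. Popdc3, a Popeye protein of muscle membranes that binds cyclic AMP, had 12.12, 11.91, 12.24 and 12.21 on the combination arrays, against 11.36, 11.52, 11.62 and 11.53 on the control arrays. Every combination array was above every control array, and the rise was 0.61 ± 0.10 (SE, limma adjusted p = 0.00443). Popdc3 was also the 1 gene of the list called for the combination against L-NAME (0.44, adjusted p = 0.0439), a call lost in 14 of the 16 fits that left out an array (adjusted p from 0.0513 to 0.146). It stayed past the threshold there only without AngII array 4 or combination array 2. Pkig, which encodes an inhibitor of PKA, had 12.44, 12.64, 12.67 and 12.62 on the combination arrays, against 13.14, 13.10, 13.00 and 13.17 on the control arrays. It fell by 0.51 ± 0.089 (adjusted p = 0.00497), again with no overlap. AngII differed from control in Pkig by -0.52 (adjusted p = 0.0514) and L-NAME by -0.38 (adjusted p = 0.259), with the same control arrays.

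Tnni3 encodes cardiac troponin I, the sarcomere protein that PKA phosphorylates to speed relaxation. It had 12.36, 12.36, 12.76 and 12.85 on the combination arrays, against 13.07, 13.05, 13.11 and 13.11 on the control arrays, and fell by 0.50 ± 0.12 (SE, limma adjusted p = 0.0221). It did not pass when control array 1, 3 or 4 was left out (adjusted p = 0.0519, 0.0542 and 0.0513), nor without the first combination array (0.0633). Its differences from control were -0.33 in the AngII group and -0.36 in the L-NAME group (adjusted p = 0.205 and 0.272), with the same control arrays.

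Among the G protein subunits, Gna11, an alpha subunit of the Gq family, had 10.83, 11.02, 10.72 and 10.50 on the combination arrays, against 11.12, 11.23, 11.22 and 11.28 on the control arrays. It fell by 0.45 ± 0.11 (SE, limma adjusted p = 0.0262), and it did not pass when control array 2, 3 or 4 was left out (adjusted p = 0.0602, 0.0593 and 0.0682), or combination array 1 or 3 (0.05001 and 0.061). Gng5, a gamma subunit, had 10.58, 10.90, 10.82 and 11.30 on the combination arrays, against 11.64, 11.68, 11.85 and 11.55 on the control arrays. It fell by 0.78 ± 0.21 (adjusted p = 0.0387) without overlap, and its difference from control was -0.81 in the AngII group and -0.76 in the L-NAME group (adjusted p = 0.111 and 0.259). The Gng5 call was lost without any 1 of the control arrays, L-NAME array 1 or 4, AngII array 1, or combination array 1, 2 or 3 (adjusted p from 0.0503 to 0.1). It was also lost with the atrial covariate (-0.72, adjusted p = 0.091) and with no filter on dim probes (adjusted p = 0.06).

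Gnao1, the alpha subunit of Go, had 8.91, 8.78, 9.05 and 8.66 on the combination arrays, against 8.24, 8.0, 8.33 and 8.74 on the control arrays. It rose by 0.52 ± 0.15 (SE, limma adjusted p = 0.0492), with control array 4 inside the range of the combination arrays. The call held, among the fits that left out an array, only without control array 4 or combination array 4, and the adjusted p in the other 14 was 0.053 to 0.13. Control array 4 and combination arrays 1 and 3 also had the highest averages of 4 tested atrial markers, at 10.91, 10.53 and 11.61. With the atrial covariate the Gnao1 difference was 0.38 (adjusted p = 0.128). The averages of these markers were 9.55 to 11.61 in the combination group, 8.86 to 9.50 in the AngII group and 8.93 to 9.35 in the L-NAME group. The covariate, which leaves out the marker Nppa, may thus take up part of a treatment difference here and above. The part of atrial tissue was not tested.

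The counterparts of the members among the genes not called are given by role, and were picked after their values were seen. Of the receptor kinases and arrestins, Grk4 differed between combination and control by 0.20, Grk6 by 0.34 and Arrb1 by 0.18, while Arrb2, an arrestin that binds phosphorylated receptors, differed by -0.60 ± 0.28 (SE, limma adjusted p from 0.227 for Arrb2 to 0.78 for Grk4). The other adenylyl cyclases Adcy4, Adcy7 and Adcy9 differed by -0.20, -0.16 and -0.25, and the dim Adcy1 by 0.12 (adjusted p from 0.604 to 0.851). Among RGS genes, Rgs5, which pericytes express strongly, had a difference of 0.30 ± 0.096 with every combination array above every control array (adjusted p = 0.0827), and Rgs17 one of 0.67 (adjusted p = 0.214). Rgs12, Rgs3 and Rgs19 differed by 0.47, 0.22 and 0.078, and Rgs6 and Rgs10 by -0.28 and -0.17 (adjusted p from 0.167 to 0.932). Of other parts of both routes, Gnas, the Gs alpha subunit, differed by -0.14, Gnaq by 0.12, the PKA catalytic subunit gene Prkaca by -0.13 and phospholamban (Pln) by -0.19 (adjusted p from 0.336 to 0.657). The phospholipase C gene Plcb3 differed by -0.35 (adjusted p = 0.321). The AngII receptor gene Agtr1a differed by 0.20 (adjusted p = 0.328) and the muscarinic receptor gene Chrm2 by -0.44 (adjusted p = 0.256).

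In the other comparisons of the list, no gene was called for AngII against control, L-NAME against control, the combination against AngII or the interaction (limma). At an unadjusted p under 0.05 these had 13, 14, 12 and 12 of 73, or 17.8%, 19.2%, 16.4% and 16.4%. The shares of all tested genes were 14.4%, 11.4%, 15.5% and 16.4% in the same order. With the replicate number as a block, Pkig was called for AngII against control (adjusted p = 0.043), and Popdc3 and Maob for the combination against AngII (adjusted p = 0.048 and 0.0483). Maob, a monoamine oxidase that breaks down catecholamines, and the gamma subunit gene Gng10 were then called for the interaction, Maob for the combination against L-NAME, and Gna12, an alpha subunit, for the combination against control (-1.02, adjusted p = 0.0275). The block raised the share of all tested genes called to 0.614% for AngII against control and 0.461% for the interaction. For the combination it was 1.89% against AngII, 2.87% against L-NAME and 8.64% against control. Maob averaged 10.74 in the combination group, 11.29 in the AngII group, 11.43 in the L-NAME group and 11 in the control group. Maob, Gng10 and Gna12 are named here because of these calls, after their values were seen.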

How the data were processed

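RNA from 16 left ventricle samples, 4 in each of 4 groups, was measured on Illumina BeadChips. Total RNA was turned into biotinylated cRNA with an Ambion kit, per the labels' protocols. The software named, per the submitters' processing notes, is GenomeStudio and lumi. The deposited values are on a log2 scale, and their sorted columns differed by at most 0.00132, as quantile normalisation leaves them. Whether background was subtracted, or a variance-stabilising transform used, is not known from the labels or the headers, so the size of differences of dim genes is uncertain. The 64 columns of a second file of signals were left out, since their names fit none of the labels.

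Gene symbols came from the platform annotation (23978 of 25697 probes had 1 symbol). Background was set with 1362 chemosensory receptor probes, 13020 probes passed, and each of 9119 genes was represented by its probe of highest mean level. The members, lists and tests were chosen with earlier results of these data known. All 8 members are named, with each list gene called for the combination against control and up to 3 called in each other comparison, and the 3 genes of highest Pearson r for the 3 members of smallest adjusted p. Group means were fitted with limma to the 16 arrays together (residual degrees of freedom 12, prior 3.15). The procedure was also run on simulated data with independent arrays. These had neither replicate sets nor an outlying array, so the run cannot speak to either. The number of arrays limits the precision.

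Deviations from group means correlated positively in all 24 pairs of arrays with the same replicate number (r from 0.115 to 0.452, median 0.281). The main fit had no block for these numbers, so its SEs and p-values do not allow for such a pairing. The replicate number was a block only in an alternative fit. Pairs of other numbers within replicates 1 and 2 or within 3 and 4 had a median of 0.232 and pairs across these sets of -0.258, so the pairing may be only that of the 2 sets. Deviations within a group sum to 0, so positive values within sets push those across sets below 0. The negative median thus adds nothing further. The labels do not explain the numbers. Alternatives covered the filter, single probes, the variance model, array weights, the block, the arrays in the fit, cyclic loess, median centring, an atrial covariate and each array left out. R 4.3.3, limma 3.58.1, Python 3.11.15 and matplotlib 3.10.9 were used.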

Additional observations from a re-analysis of the deposited data

Results flagged for a closer look

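An array lay far from the other 3 in 2 of 24 groups, counting each of the 6 tested member probes in each of the 4 groups, and chance gives such a gap in about 1 in 20. Both concern the brighter Grk5 probe. In the combination group array 4 had 8.45, with the nearest array at 10.14. In the control group array 4 had 10.10, with the nearest at 10.48, in a group whose other 3 arrays lay within 10.48 to 10.49.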

How the results depend on the processing

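Over 27 alternatives, 642 values of 24 member differences (6 comparisons for each tested member) gave 626 with the same sign and the same side of the threshold, 15 with the other sign and 1 that newly passed. Many of these values could not change sign. The blocks, the variance model and leaving out an array of a group outside the comparison leave the difference itself as it was. The tally thus says little on how firm the signs are. Rgs2 was not tested where all 16 arrays had to exceed background. No member was called under any alternative except Rgs2 for the combination against L-NAME, so that leaving out an array gave 0 to 1 members there. With array weights the sign changed for Rgs4 in the combination against control (0.085), Adcy6 in L-NAME against control (-0.00374), and Grk5 in the combination against AngII (0.16) and L-NAME (0.22). Leaving out each array in turn changed the sign of 7 differences. For the combination against control, Rgs4 ran from -0.21 to 0.16 (without combination array 4). For L-NAME against control, Adcy6 ran from -0.023 (without control array 4) to 0.24 and Rgs2 from -0.11 (without L-NAME array 4) to 0.52. For the combination against AngII, Rgs4 ran from -0.072 to 0.29, below 0 without AngII array 4 (-0.069) or combination array 2 or 3 (-0.072 and -0.056), and Grk5 from -0.27 to 0.35, above 0 without combination array 4 or AngII array 1 (0.043). Without combination array 4, Grk5 reached 0.25 against L-NAME (lowest -0.37) and Rgs4 0.081 in the interaction (lowest -0.29). The atrial covariate turned Rgs4 in the combination against AngII (-0.16). No value that changed sign passed the threshold, and the cause was not tested.

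List genes called numbered 6 for the combination against control, 1 for the combination against L-NAME and 0 otherwise. Leaving out an array gave 2 to 9 for the combination against control, 0 to 3 for AngII against control, and 0 to 1 for the combination against AngII or L-NAME and for the interaction. In the order combination against control, AngII and L-NAME against control, combination against AngII and L-NAME, and interaction, array weights gave 10, 4, 1, 2, 3 and 4. For AngII against control, combination against AngII, combination against L-NAME and interaction, the trended robust variance gave 2, 2, 2 and 3, the replicate block 1, 2, 2 and 2, the 2 sets as a block 1, 1, 2 and 2, and the stricter filter 1, 1, 2 and 2. No filter gave 1 for AngII against control. With only the arrays of the comparison, and so fewer samples, there were 0 for the combination against control and against L-NAME. The count against L-NAME was also 0 with every probe tested by itself or the atrial covariate. Median centring changed nothing, since the arrays share a median. The replicate block changed no call of a member. The values of second probes, marker genes and correlated genes without combination array 4 were computed after seeing the data.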
